A study of Phaseolus vulgaris with 4 samples.

Results

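The genes described here were abundant in both regions of the globular-stage embryo of common bean (Phaseolus vulgaris, cultivar G19833) and moderately higher in the suspensor than in the embryo proper. They numbered 42 of the 20961 genes with a value in at least 1 library. Members were selected on RPKM, the read count of a gene divided by its length in kilobases and scaled to the size of the library. A member had at least 50 RPKM in all 4 libraries, and the lower suspensor value was at least 2 times and under 8 times the higher embryo proper value. The libraries were 2 replicates of laser-captured suspensor and 2 of laser-captured embryo proper, from seeds of 1.6 to 2.0 mm fixed 6 days after pollination. All 4 came from plants of the same cultivar, grown under 16 hours of light a day except for a period of 8-hour days that started flowering. The number of embryos behind a library is not given in the labels, nor whether libraries of different regions share seeds or plants.

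The suspensor attaches the embryo proper to the seed tissue around it and passes nutrients and hormones to the embryo proper early in development. In beans of the genus Phaseolus it is massive, its basal cells carry polytene chromosomes, and it is a known site of gibberellin synthesis. The embryo proper is the part that forms the cotyledons, the shoot and the root. In bulk tissue of this kind, a lower level can come from fewer cells that express a gene or from less RNA per cell, and these cannot be told apart here.

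The deposited tables give gene IDs only, and 0 of these 20961 IDs could be found among the 34165 genes of the RefSeq table. No function is therefore given for any member, the labelled regions were not checked against marker genes, and no sequence is shown. Members are called by their rank in mean RPKM over the 4 libraries, from 1 for the highest to 42 for the lowest. Because the members were chosen by the values of all 4 libraries, the levels and ratios below are a description and no test is attached to them.

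Of the 1566 genes of any level whose suspensor to embryo proper ratio met both bounds, 1524 fell under 50 RPKM in a library. Conversely, 944 genes reached 50 RPKM in all 4 libraries, and the members made up 4.45% of them. Among these 944 abundant genes, both suspensor libraries stood above both embryo proper libraries for 201 genes, or 21.3%. Most of these 201 differed by less than the rule asks: 150 lay under 2 times, and 9 lay at 8 times or more.

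**Figure D1:**
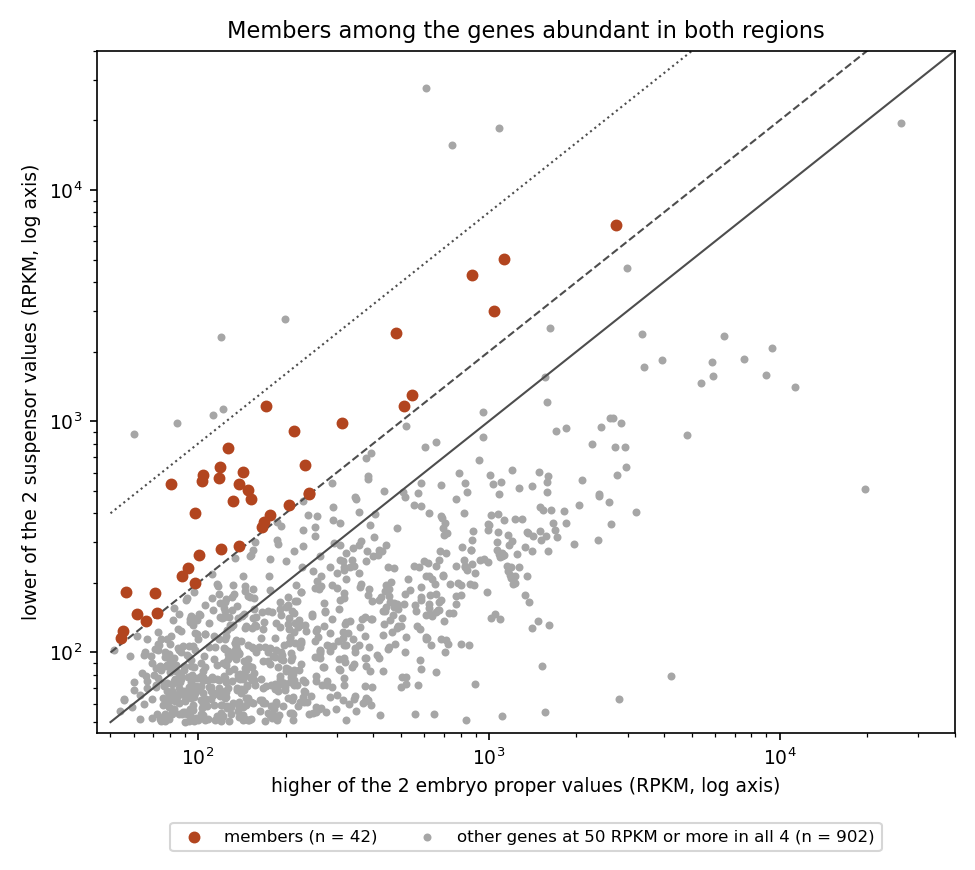
Each point is 1 of the 944 abundant genes (50 RPKM or more in all 4 libraries), placed by the higher of its embryo proper values (horizontal, RPKM, log axis) and the lower of its suspensor values (vertical, RPKM, log axis). The solid line marks equal values, the dashed line 2 times and the dotted line 8 times; the 42 members fill the band between the dashed and the dotted line, with 9 grey points above it.

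Members were not spread evenly over this band. The ratio of the lower suspensor to the higher embryo proper value lay between 2 and 3 for 23 members, between 3 and 4 for 6, between 4 and 6 for 10 and between 6 and 8 for 3. Its median was 2.69 and its highest value 6.79, so that no member lay close to the upper bound. The next abundant gene above was at 9.27 times. The lower bound cut through a continuous range: the member nearest to it stood at 2.01 times and the nearest gene outside at 1.98 times. That outside gene had 102 and 106 RPKM in suspensor replicates 1 and 2, against 50.5 and 51.5 RPKM in embryo proper replicates 1 and 2. The floor of 50 RPKM also passed close by some genes. The member nearest to it had 50.5 RPKM in embryo proper replicate 2, and the nearest gene that missed it had 49.8 RPKM in embryo proper replicate 1.

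The ratio of the region means, which does not take the extreme library of each region, ranged from 2.06 to 10.0 with a median of 3.92. It exceeded 8 for 6 members, those at ranks 2, 8, 10, 12, 14 and 22. Expressed the other way, the mean level in embryo proper was between 9.98% and 48.6% of that in suspensor, with a median of 25.6%. For comparison, the 9 genes at 8 times or more had between 1.49% and 8.19%. The lowest such share was 0.358% over the 736 genes that reached 100 RPKM in suspensor replicates 1 and 2. The floor and the upper bound of the rule keep the members away from such low shares.

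**Figure D2:**
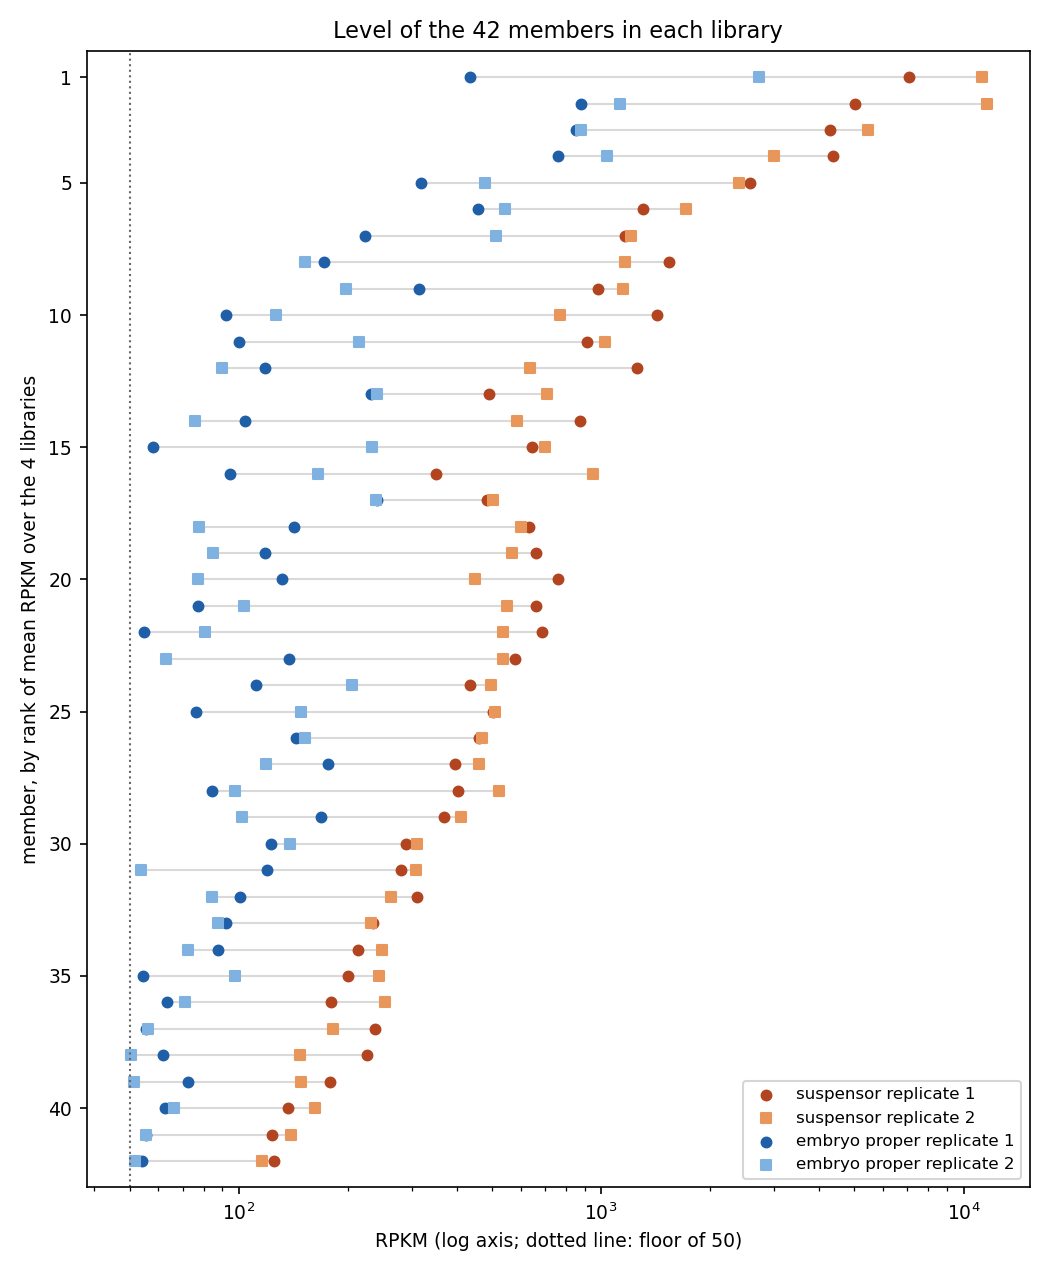
Level of each of the 42 members (rows, by rank of mean RPKM) in the 2 suspensor libraries (orange) and the 2 embryo proper libraries (blue), in RPKM on a log axis, with circles for replicate 1 and squares for replicate 2. The orange points of a row lie to the right of its blue points by construction; the widest spread between blue points is at rank 1, from 436 to 2729 RPKM.

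The members spanned a wide range of levels. Mean RPKM over the 4 libraries ran from 86.7 to 5366 with a median of 344, and it was at least 1000 for 6 members, between 200 and 1000 for 24 and under 200 for 12. Mean suspensor levels ran from 120 to 9150 RPKM with a median of 579. Mean embryo proper levels ran from 52.9 to 1582 RPKM with a median of 110. In 12 members both embryo proper values were under 100 RPKM, within a factor of 2 of the floor.

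The most abundant member was Phvul.005G073200, on chromosome 5 by its ID. It had 7063 and 11238 RPKM in suspensor replicates 1 and 2, against 436 and 2729 RPKM in embryo proper replicates 1 and 2. The regions did not overlap, but the embryo proper libraries differed 6.27-fold from each other, the largest difference between replicates of any member in either region. The suspensor libraries differed 1.59-fold. The mean RPKM was 9150 ± 2952 in suspensor and 1582 ± 1622 in embryo proper (SD, n = 2 each), a ratio of means of 5.78. Measured against the higher embryo proper library alone, the lower suspensor value was 2.59 times as high.

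The member at rank 2, on chromosome 1, had 5008 and 11596 RPKM in suspensor replicates 1 and 2, against 878 and 1130 RPKM in embryo proper replicates 1 and 2. Here the suspensor libraries were the uneven ones, with a 2.32-fold difference. At rank 3, on chromosome 4, the values were 4271 and 5454 RPKM in suspensor and 852 and 877 RPKM in embryo proper. Its lower suspensor value was 4.87 times the higher embryo proper value, and neither region's libraries differed by as much as 1.5-fold. The member at rank 4, also on chromosome 4, had 4349 and 3006 RPKM in suspensor, against 758 and 1038 RPKM in embryo proper. At rank 5, on chromosome 3, the suspensor libraries had 2578 and 2406 RPKM and the embryo proper libraries 319 and 479 RPKM. With these 5 genes the list held transcripts that ranked between 5 and 24 in both suspensor libraries and between 19 and 338 in the embryo proper libraries.

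Ranks 6 to 10 followed at lower levels. Rank 6 had 1303 and 1715 RPKM in suspensor replicates 1 and 2, against 457 and 545 RPKM in embryo proper. Rank 7 had 1164 and 1206 RPKM in suspensor, against 223 and 512 RPKM in embryo proper. The embryo proper libraries of rank 7 differed 2.29-fold and its suspensor libraries 1.04-fold. Rank 9 had 978 and 1148 RPKM in suspensor, against 314 and 198 RPKM in embryo proper. Rank 10 had 1426 and 768 RPKM in suspensor, against 92.4 and 127 RPKM in embryo proper. Its ratio of means, 10.0, was the highest of the 42, while its lower suspensor value was 6.07 times the higher embryo proper value.

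Phvul.005G175100, at rank 8 and likewise on chromosome 5 by its ID, had the largest ratio of the lower suspensor to the higher embryo proper value, 6.79. It had 1543 and 1165 RPKM in suspensor replicates 1 and 2, against 171 and 152 RPKM in embryo proper replicates 1 and 2. Both regions were even, with replicate differences of 1.32-fold in suspensor and 1.13-fold in embryo proper. The mean RPKM was 1354 ± 267 in suspensor and 162 ± 13.7 in embryo proper (SD, n = 2 each). Rank 22 was next by this ratio, at 6.65, with 687 and 536 RPKM in suspensor and 54.9 and 80.6 RPKM in embryo proper. Ranks 10, 14, 12, 21, 5, 3, 19 and 2 completed the 10 largest ratios, between 6.07 and 4.43. Large ratios therefore occurred from the top of the list to its middle.

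Level and ratio went together within the list. In the 14 most abundant members the median ratio of means was 5.97, and 8 had a lower suspensor value at least 4 times the higher embryo proper value. The next 14 had a median of 5.04, with 5 at 4 times or more. The 14 least abundant had a median of 2.88, with 0 at 4 times or more and a highest value of 3.24. Spearman's rho between mean RPKM and the ratio of means was 0.61 over the 42 members. With the embryo proper mean in place of the overall mean it was 0.23. Level and ratio share the suspensor values, and the rule bounds both, since a member near the floor in embryo proper reaches a high mean only through suspensor. Suspensor and embryo proper means ran in a similar order across the members, with a rho of 0.81. The rule holds the ratio of the regions within a band and so largely sets this order, and nothing is read from it.

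Some members were even within both regions, among them those of lowest level. Rank 42 had 125 and 116 RPKM in suspensor replicates 1 and 2, against 54.2 and 51.7 RPKM in embryo proper. Rank 41 had 124 and 140 RPKM in suspensor, against 55.4 and 55.3 RPKM in embryo proper. Rank 17, with the smallest ratio of the list, had 484 and 503 RPKM in suspensor, against 241 and 239 RPKM in embryo proper. Its replicates differed 1.04-fold in suspensor and 1.01-fold in embryo proper, less than the 2.06-fold difference between the region means. Rank 33 had 235 and 231 RPKM in suspensor, against 92.2 and 87.5 RPKM in embryo proper.

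In all, 24 of the 42 members differed by less than 1.5-fold between replicates in both regions. The median difference between suspensor replicates was 1.18-fold in the members and 1.30-fold in the other 902 abundant genes. Between embryo proper replicates it was 1.37-fold in the members and 1.36-fold in the other 902. Because the rule compares the lower suspensor value with the higher embryo proper value, it holds back genes whose replicates differ widely, so these medians are not independent of the choice of members. Differences over 2-fold were found in 2 members in suspensor, at ranks 2 and 16, and in 6 in embryo proper, at ranks 1, 7, 11, 15, 23 and 31. In suspensor this was 4.76% of the members, against 9.31% of the other 902 abundant genes. In embryo proper it was 14.3% of the members, against 11.2% of the other 902.

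Beside rank 1, the most uneven members were ranks 15 and 16. Rank 15 had 644 and 702 RPKM in suspensor replicates 1 and 2, against 57.9 and 233 RPKM in embryo proper, a 4.02-fold difference between the embryo proper libraries. Rank 16 had 350 and 950 RPKM in suspensor, against 94.4 and 166 RPKM in embryo proper, and its suspensor libraries differed 2.71-fold. For such members the size of the regional difference depended on the library taken. Neither replicate was the higher one throughout. Replicate 2 was higher for 24 of the 42 members in suspensor and for 23 in embryo proper. Among the 141 abundant genes that were 2 to 8 times higher in embryo proper by the mirrored rule, replicate 2 was higher for 93 in suspensor and for 29 in embryo proper. Over all 944 abundant genes, replicate 2 was higher for 498 in suspensor and for 366 in embryo proper.

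**Figure D3:**
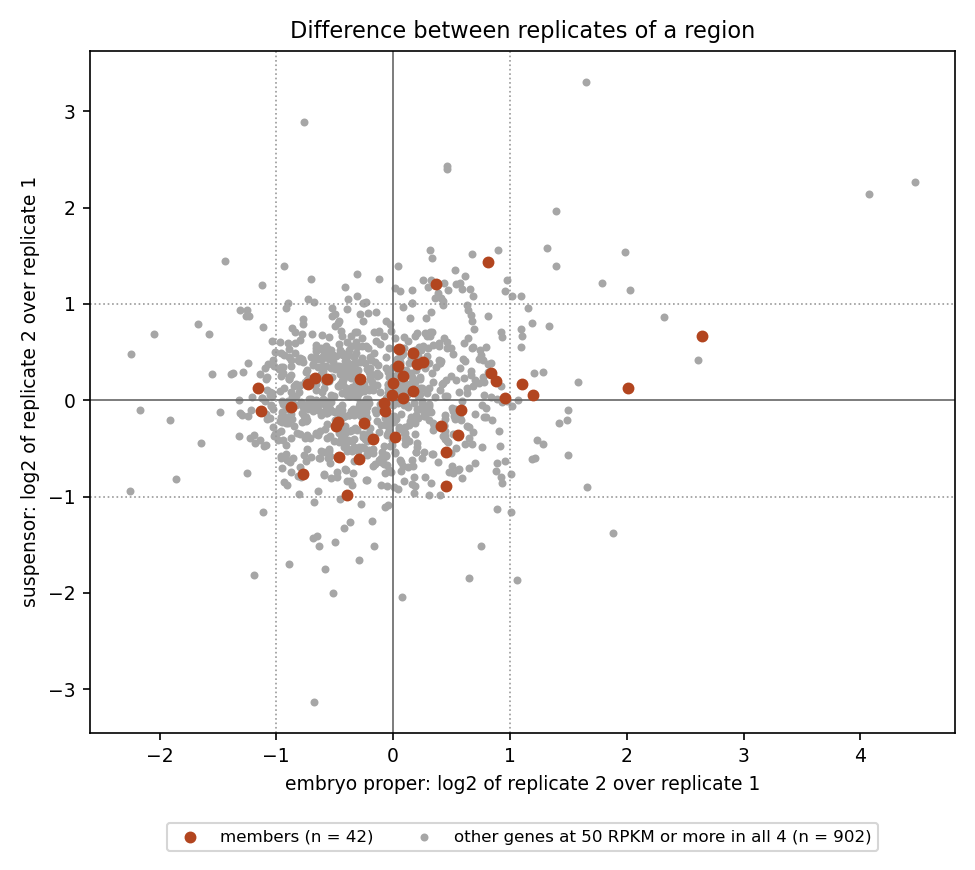
Log2 of replicate 2 over replicate 1 in embryo proper (horizontal) and in suspensor (vertical) for the 42 members and the other 902 genes with at least 50 RPKM in all 4 libraries; dotted lines mark a 2-fold difference. Members lie on both sides of 0 on both axes, with rank 1 farthest to the right, at a 6.27-fold difference between embryo proper libraries.

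The members took 6.61% and 7.74% of the summed RPKM in suspensor replicates 1 and 2, against 1.11% and 1.70% in embryo proper replicates 1 and 2. The mean share was 7.18% ± 0.799 in suspensor and 1.40% ± 0.414 in embryo proper (SD, n = 2 each). Much of it came from few genes: the 5 most abundant members held 52.9% and 62.8% of the members' sum in suspensor, against 41.2% and 55.4% in embryo proper. Without these 5, the other members took 3.00% ± 0.164 of the sum in suspensor and 0.705% ± 0.0731 in embryo proper. The libraries of a region were closer to each other without the 5 genes than with them. By comparison, the 9 abundant genes at 8 times or more took 12.9% and 14.9% of the suspensor sums, against 0.334% and 0.445% of the embryo proper sums.

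**Figure D4:**
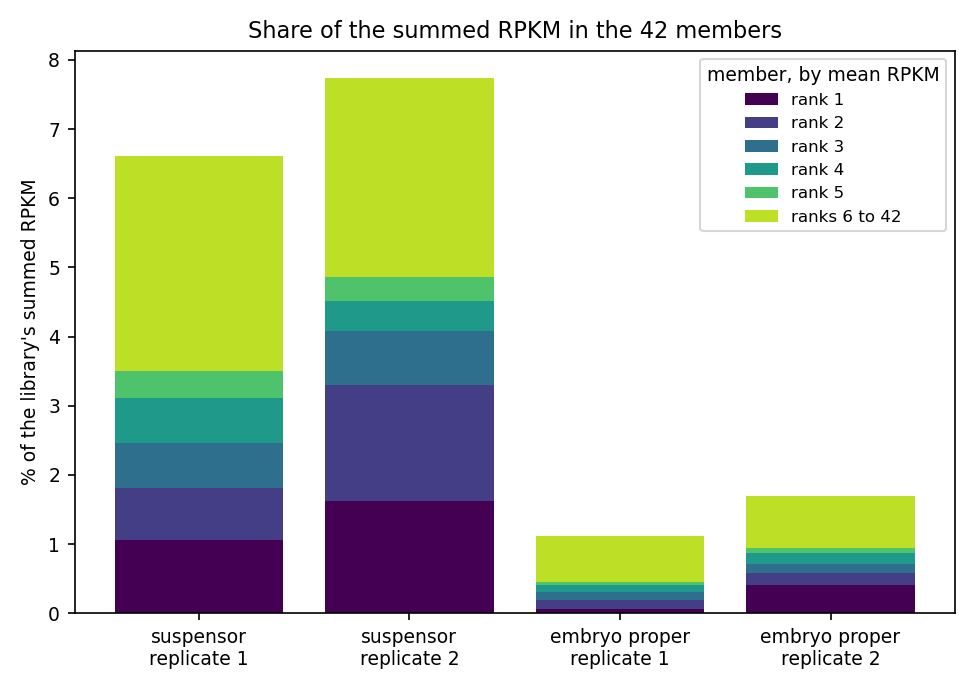
Share of each library's summed RPKM, in percent, taken by the 42 members, stacked by member: ranks 1 to 5 singly and ranks 6 to 42 together. The suspensor bars reach 6.61% and 7.74% and the embryo proper bars 1.11% and 1.70%; the segments of ranks 1 and 2 are larger in suspensor replicate 2 than in suspensor replicate 1.

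Within each library, ranks by RPKM place the members on a scale that needs no comparison of totals. In suspensor replicates 1 and 2, 19 and 15 members were among the 100 highest genes, against 0 and 4 in embryo proper replicates 1 and 2. The 500 highest genes held 39 and 37 members in suspensor, against 10 and 13 in embryo proper. The median rank of the members was 126.5 and 132.5 in suspensor, against 849.5 and 962 in embryo proper. Between 1991 and 2103 genes reached 50 RPKM in each library. The lowest-placed member stood at rank 718 and 824 in suspensor replicates 1 and 2, against 1831 and 2061 in embryo proper replicates 1 and 2. The rule largely sets this contrast, since it asks for suspensor values at least 2 times the embryo proper values. Phvul.005G073200 stood at ranks 5 and 6 in suspensor, against 255 and 19 in embryo proper. Phvul.005G175100 stood at 32 and 47 in suspensor, against 583 and 636 in embryo proper.

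The reads behind these values were many. Whole reads recovered from the RPKM values gave totals of 56813099 and 55135334 reads for suspensor replicates 1 and 2, against 60900034 and 73408617 for embryo proper replicates 1 and 2. The members had between 2633 and 1042155 reads in the suspensor libraries and between 768 and 336994 in the embryo proper libraries. These reads per gene are lower bounds, since they scale with the recovered gene lengths. The labels mention no molecular identifiers, so copies made in amplification cannot be told from separate molecules. The recovered gene lengths, which are lower bounds, ran from 198 to 2980 bp with a median of 1108 bp, against a median of 1165 bp in the other abundant genes. The shortest member, at rank 14, had 877 and 585 RPKM in suspensor, against 104 and 75.7 RPKM in embryo proper. Across the members, rho was 0.12 between length and mean RPKM and 0.16 between length and the ratio of means.

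By the numbers in the gene IDs, members lay on all 11 chromosomes. Chromosome 5 held the most, 7 members among its 68 abundant genes (10.3%), and chromosome 2 the smallest share, 3 of 118 (2.54%). The 7 on chromosome 5 included ranks 1 and 8 and the pair of lowest rank, 41 and 42. Pairs of members up to 10 ID positions apart were sought, and no such count was made over other genes. On chromosome 1, ranks 19 and 38 were 3 ID positions apart, and on chromosome 10, ranks 14 and 32 were likewise 3 apart, while 0 members were immediate neighbours.

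The stretch around the chromosome 1 pair held several genes that were abundant in both regions. Rank 19 had 662 and 567 RPKM in suspensor replicates 1 and 2, against 118 and 85.0 RPKM in embryo proper. The gene after it had 764 and 564 RPKM in suspensor, against 383 and 286 RPKM in embryo proper, and missed the rule with a ratio of 1.47. In the next gene the regions overlapped, with 88.9 and 38.7 RPKM in suspensor, against 126 and 79.2 RPKM in embryo proper. Rank 38 came next, with 226 and 147 RPKM in suspensor, against 61.7 and 50.5 RPKM in embryo proper. The listed gene after rank 38 had 769 and 394 RPKM in suspensor, against 212 and 239 RPKM in embryo proper, a ratio of 1.65.

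The nearest listed genes on either side of each member were not used by the rule. Of these 84 genes, 65 passed the filter of at least 1 RPKM in at least 2 libraries. Both suspensor libraries were above both embryo proper libraries for 22 of the 65 (33.8%), and the reverse held for 9 (13.8%), while 34 overlapped. Over all 15169 genes that passed the filter, 27.0% had both suspensor libraries above and 28.1% had both embryo proper libraries above. The median log2 ratio of region means, with 1 RPKM added, was 0.52 in the 65 flanking genes and 0.01 over all 15169. A lower suspensor value at least 2 times the higher embryo proper value was found in 13 of the 65 (20%), against 13.4% of the 15169.

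For 3 of the 42 members the flanking genes on both sides were higher in both suspensor libraries. Of all 15169 genes that passed the filter, 27.0% were higher in both suspensor libraries. The share of genes flanked so on both sides was not computed, and nothing is read from this count. The clearest of the 3 was Phvul.005G175100. The gene before it had 157 and 179 RPKM in suspensor replicates 1 and 2, against 6.01 and 2.72 RPKM in embryo proper. The gene after it had 35.7 and 51.3 RPKM in suspensor, against 0.979 and 1.49 RPKM in embryo proper. These 3 neighbouring genes were all higher in suspensor, and the flanking pair differed more than the member itself, with lower suspensor values 26.2 and 24.0 times the higher embryo proper values. Rank 28 stood between a gene with 105 and 153 RPKM in suspensor, against 16.9 and 16.8 RPKM in embryo proper, and a gene under 2 RPKM in all 4 libraries. Rank 3 showed the opposite: the gene before it had 1.84 and 0.289 RPKM in suspensor, against 26.7 and 25.3 RPKM in embryo proper. How the authors assigned reads that match several genes is not given in the sources used here, so values of near-identical neighbours are uncertain.

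Set beside the mirrored group, the list was short. The rule gave 42 genes for suspensor and, with the regions exchanged, 141 for embryo proper. The median of the mean level over the 4 libraries was 344 RPKM in the members and 396 RPKM in the mirrored genes. The median log2 ratio of means was 1.97 in the members and −1.74 in the mirrored genes. Over all 944 abundant genes the median log2 ratio was −0.37, so the abundant class as a whole lay lower in suspensor, while the median over the 15169 genes was 0.01. With RPKM rescaled to a sum of 1000000 per library the counts were 65 in suspensor and 184 in embryo proper, and with trimmed-mean scaling they were 33 and 141. The mirrored group was the larger under each scaling that was run.

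The regions were also compared over the whole table with limma on log2(RPKM + 1), suspensor minus embryo proper. It called 29 of the 42 members higher in suspensor at a Benjamini-Hochberg adjusted p under 0.05, against 4.49% of the 15169 genes tested. The rule chose the members on the same contrast and libraries, so nothing is read from this count. The 13 members not called included rank 1, and their ratios of means reached 5.78. In either direction limma called 1523 genes. Without suspensor replicate 1 or without suspensor replicate 2, which leaves 1 suspensor library, limma made no call in the whole table. Without embryo proper replicate 1 it called 15 members and 746 genes in all. Limma-voom on the recovered reads called 18 members among 489 genes with trimmed-mean factors, and 28 among 810 without such factors, a setting chosen after seeing the data.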

How the data were processed

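Total RNA (5 ng) from laser-captured regions of 6 micron paraffin sections was amplified (Nugen Ovation RNA-Seq) and the libraries went through 10 PCR cycles, per the labels' protocols. The authors deposited 1 table of RPKM values per library. The submitters' processing notes name Bowtie 0.12.7 and bedtools. Not given in the sources used here are the genome build, the annotation, the use of strand and the handling of reads matching several genes. Genes missing from a table were set to 0.

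The tables were joined by gene ID and the rule was applied to the RPKM values. Library totals were taken as the numbers at which gene lengths between 30 and 20000 bp gave whole reads, to within 1e-05 reads or the decimals of the table, for nearly all genes. Only genes above 0 are listed; 3 reads in a 1 kb gene, the limit that a count of 0 allows, were at most 0.0544 RPKM. Limma 3.58.1 in R 4.3.3 was fitted with a trend of the variance on level and no replicate block to log2(RPKM + 1) of the genes that reached 1 RPKM in 2 libraries or more. The recovery and the fit were tested on simulated data.

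The replicates are called biological in the labels, but their source is not described, so any spread between them may be partly technical. Named members were the 10 highest by mean RPKM and the 10 with the largest ratio of the lower suspensor to the higher embryo proper value; IDs were printed only for the first of each. Members described for evenness, length, neighbours or uneven replicates were picked after their values were seen. The members, lists and rules were chosen with earlier results of these data known. Gene lists and markers set by product name were not used, for lack of names. Alternatives were other floors, bounds, scalings, pseudocounts and filters, the replicate block, limma-voom, and leaving out each library; limma-voom without trimmed-mean factors was added after seeing the data.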

Additional observations from a re-analysis of the deposited data

How the results depend on the processing

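No alternative reversed a direction, but the rule had largely fixed the direction by choosing the members on these same values. The number of members, 42, depended on the settings of the rule. A floor of 25 RPKM gave 91, a floor of 100 RPKM gave 17, bounds on the ratio of region means gave 76, a sum of 1000000 per library gave 65, with the floor then in other units, and trimmed-mean scaling gave 33 with 26 of the 42 kept. It was 71 without suspensor replicate 1, 58 without suspensor replicate 2, and without embryo proper replicates 1 or 2 it was 80 or 72, since fewer values had to meet the rule. Between 37 and 41 of the 42 remained. Leaving out a library cannot make a member miss the floor or the lower bound, so those lost had reached the upper bound. The number that remained is therefore no measure of how steady the list was. The median ratio of means, 3.92, was 3.22 with the floor of 100 RPKM, 2.88 with bounds on region means, 3.52 with a sum of 1000000, 4.86 with trimmed-mean scaling and 3.88 with the floor of 25 RPKM. It ranged from 2.91 to 3.40 with 1 library left out.

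Of the 42 members limma called 29 higher in suspensor, against 4.49% of the 15169 genes tested. It called 1523 genes in either direction, and the numbers of genes below are likewise in either direction. The rule chose the members on the same contrast and libraries, so nothing is read from the members' counts or from how steady they were. The members' count stayed within 1.5 times under pseudocounts of 0.1 (32 among 1862 genes) and 5 (22 among 1064), a mean of at least 5 RPKM (33 among 1473), a sum of 1000000 (30 among 1464) and the replicate block (34 among 1902). The labels give replicates 1 and 2 in both regions but not that libraries of 1 number share material, and the deviations of same-numbered libraries had a correlation of 0.07 across all tested genes and 0.32 across the members. With 2 libraries per region neither value can show pairs, and the numbers were not taken as such. Limma-voom on the recovered reads called 18 among 489 genes with trimmed-mean factors and 28 among 810 without them, the second setting chosen after seeing the data. Without a filter on low values limma called 0 genes of the whole table, and so 0 members, and the cause was not tested. Leaving out 1 library, which takes the spread from the other region alone, the members' count ranged from 0 to 21. It was 21 among 1009 genes without embryo proper replicate 2 and 15 among 746 without replicate 1, while both fits without a suspensor library called 0 genes in all, with 36 and 28 members at an unadjusted p under 0.05. The members' share of summed RPKM was higher in suspensor than in embryo proper by 5.78 percentage points, by 5.71 as a share of recovered reads, and by 5.21 to 6.34 with 1 library left out.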
